A study of Canis lupus familiaris with 16 samples.

Results

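Polycomb proteins keep developmental and cell cycle genes silent, and they work in 2 kinds of complex. Polycomb repressive complex 2 (PRC2) methylates a lysine in the tail of histone H3 through EZH1 or EZH2, its alternative enzymes, which need the partners EED and SUZ12. Accessory subunits such as JARID2, PHF19 and MTF2 guide PRC2 to its targets. Polycomb repressive complex 1 (PRC1) attaches ubiquitin to histone H2A through RNF2, with BMI1 as a partner of the enzyme, and CBX7 reads the methyl mark left by PRC2. In human malignant peripheral nerve sheath tumors, PRC2 is often lost through mutation of SUZ12 or EED, together with NF1 and CDKN2A. Read counts per gene do not show mutations or histone marks. The RNA levels of these 10 genes were therefore described in canine soft tissue sarcomas, with attention to the nerve sheath tumors. The rule names the genes and uses no measured value, and all 10 are among the 41818 genes counted.

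RNA of 16 canine tumors, all fixed in formalin and kept in paraffin, was sequenced, and the tumors fall into 3 types by the molecular identity in the labels. Fibrosarcomas (FS, n = 4), tumors of collagen-forming spindle cells, came from dogs aged 9 to 13 years. Peripheral nerve sheath tumors (PNST, n = 6) came from dogs aged 8 to 13 years, and perivascular wall tumors (PWT, n = 6), which grow around vessels, from dogs aged 2 to 14 years. No normal tissue was compared. Molecular identity differs from the histological diagnosis in 2 tumors, S1-10 (histologically PWT, here PNST) and S2-08 (histologically FS, here PWT), which the study moved after clustering these same expression data, so the types are not independent of the RNA levels. Graded by the labels, 7 tumors were grade 1, 2 were grade 1/2, 5 were grade 2 and 2 were grade 3, and no FS was grade 1.

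Between 507728 and 4311876 reads per tumor were counted on genes. Levels are given as CPM, counts of a gene scaled to the tumor's total counts on genes by the usual counts-per-million rule and TMM factors, and they were compared between tumors only, since gene lengths of the counted annotation were not used here. The names of 9 tumors begin with S1 (3 of 4 FS, 5 of 6 PNST, 1 of 6 PWT) and those of 7 with S2, and S1 tumors were sequenced in 3 runs and S2 tumors in 1. S1-04 and S1-05, both PNST, have the same age, breed, size and site in the labels, so the 6 PNST may come from 5 dogs. Their counts differed with a chi-square per degree of freedom of 10.4, against 1.09 to 2.10 between runs of one tumor and 15.8 to 46.7 in the other 14 PNST pairs, and they were kept as 2 tumors. Of the Schwann cell markers, SOX10 had medians of 3.86 CPM in PNST, 2.66 in FS and 2.54 in PWT, S100B of 8.31, 1.00 and 4.32, and PMP22 of 263, 123 and 222, while FOXD3 was at 0 in all PNST and FS and in 5 of 6 PWT, and the summed level of all 12 markers was 192 to 760 CPM in PNST, 167 to 265 in FS and 178 to 374 in PWT. Only 7 of the 12 Schwann cell markers reached 10 counts in at least 4 tumors. The markers not named are not listed singly, and the summed ranges overlap between the types. The 12 pericyte and smooth muscle markers summed to 453 to 916 CPM in PWT, 446 to 964 in PNST and 691 to 2188 in FS. In these bulk sections, fewer cells of a type and less RNA per cell cannot be told apart.

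EZH2 and RNF2 were called higher in FS against the other 2 types pooled, and RNF2 was not called in FS against PWT. None of the 10 genes was called in PNST or in PWT against the other types pooled. A gene was called where its adjusted p was under 0.05 (edgeR quasi-likelihood test, Benjamini-Hochberg over all genes tested) and its log2 fold change was above 1 in size. All 10 genes were among the 15408 that could be tested, those with at least 10 counts in at least 4 tumors. With FS against the other 2 types pooled, 2 of 10 were called, both higher. Of all genes tested, 9.46% were called in either direction, 5.78% higher and 3.68% lower. Whether 2 of 10 differs from those shares was not tested. DESeq2 called the same 2 genes, against 10.1% of all genes. With PNST against the other 2 types pooled, 0 of 10 were called by edgeR, against 0% of all genes, and 0 of 10 by DESeq2, against 1.69%. At an unadjusted p under 0.05, 1 member was higher and 3 were lower in PNST, against 6.57% and 9.1% of all genes. With PWT against the other 2 types pooled, 0 of 10 were called by either tool, against 2.12% (edgeR) and 5.49% (DESeq2) of all genes, and 0 had an unadjusted edgeR p under 0.05. The median log2 fold change of the 10 genes was -0.36 in PNST, 0.19 in FS and 0.00 in PWT, beside -0.06, 0.00 and -0.08 over all genes tested. Between pairs of types, 2 of 10 were called lower for PNST against FS, against 7.13% of all genes in either direction and 4.15% lower. DESeq2 called these 2 and CBX7 there, against 9.23% of all genes. For FS against PWT 1 of 10 was called higher, against 11.2% of all genes in either direction and 6.15% higher, and for PNST against PWT 0 of 10 were called by either tool, against 0.169% by edgeR and 3.86% by DESeq2, and 1 (SUZ12) had an unadjusted edgeR p under 0.05. These comparisons share tumors and are not independent of each other.

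**Figure D1:**
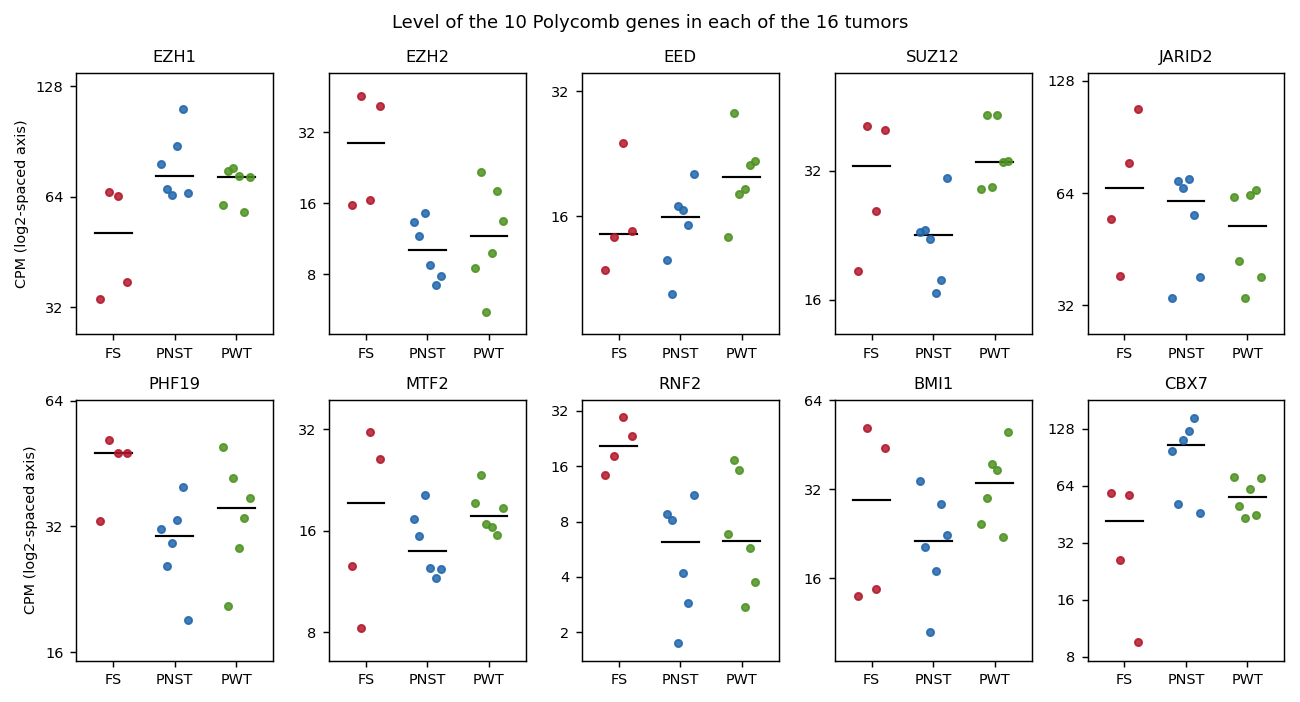
Level of each of the 10 genes (CPM, axis spaced by log2) in the 4 FS, 6 PNST and 6 PWT, with 1 point per tumor and a line at the group's median. Every FS lies above the median of the other tumors for EZH2, PHF19 and RNF2 and below it for EZH1 and CBX7. For each gene every type overlaps the other 2 types pooled. The shares of all genes placed in these ways were not computed, so nothing is read from these placements.

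EZH2, the PRC2 enzyme of dividing cells, was measured at 15.8 CPM in S1-02, 45.5 in S1-11, 16.6 in S1-12 and 41.3 in S2-06, the 4 FS. In PNST it ranged from 7.25 CPM (S1-10) through a median of 10.2 to 14.6 (S1-05), and in PWT from 5.57 CPM (S2-04) through a median of 11.7 to 21.8 (S2-03). The FS thus fall into 2 high tumors, S1-11 and S2-06, which lie above all other tumors, and 2 whose levels lie above every PNST but within the range of PWT. Against the other 12 tumors, the median of FS was 2.70 times higher and the fitted log2 fold change was 1.35 ± 0.33 (SE; edgeR adjusted p = 0.0134). The call was lost without S1-11 (log2 fold change 1.07, edgeR adjusted p = 0.0953) or without S2-06 (1.16, adjusted p = 0.0612), and it held in the other 14 fits that left out 1 tumor. Among S1 tumors, EZH2 ranged from 15.8 to 45.5 CPM in 3 FS and from 7.25 to 14.6 in 6 others, and among S2 tumors the single FS had 41.3 CPM and the 6 others 5.57 to 21.8. With the prefix as a term, the log2 fold change was 1.42 ± 0.33 (edgeR adjusted p = 0.00966). With tumors grouped by histological diagnosis, which puts S2-08 among FS, it was 1.12 ± 0.36 and was not called (edgeR adjusted p = 0.119).

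The pairwise fits gave the same order. EZH2 fell by 1.51 ± 0.38 on the log2 scale in PNST against FS (edgeR adjusted p = 0.0226), a call lost without S1-10, S1-11 or S2-06 (edgeR adjusted p = 0.0555 to 0.0905). In FS against PWT the difference was 1.20 ± 0.39 (edgeR adjusted p = 0.0486), so close to the threshold that leaving out any of 13 tumors (S1-03, S1-04, S1-05, S1-07, S1-09, S1-10, S1-11, S2-04, S2-06, S2-07, S2-08, S2-09 or S2-11) ended the call, with edgeR adjusted p = 0.0527 to 0.188. It was also lost with the prefix as a term (1.38 ± 0.45, edgeR adjusted p = 0.0780), and prefix and type are largely confounded here, with 3 of 4 FS named S1 and 5 of 6 PWT named S2. PNST and PWT did not differ detectably in EZH2 (log2 fold change -0.31 ± 0.36, edgeR adjusted p = 0.650). Few reads lie behind some of these values: S1-12 had 9 EZH2 reads (95% Poisson interval 7.58 to 31.5 CPM) and S2-04 had 4 (1.52 to 14.3 CPM), and such intervals cover counting error only.

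EZH1, the PRC2 enzyme found also in resting cells, lay the other way round. Its levels in FS were 33.7 CPM in S1-02, 65.8 in S1-11, 64.5 in S1-12 and 37.5 in S2-06, while the PNST lay between 64.8 and 111 CPM around a median of 72.9 and the PWT between 58.0 and 76.6 CPM around 72.6. S1-02 and S2-06 lay below all PNST and PWT, S1-12 just below the lowest PNST and inside the range of PWT, and S1-11 inside both ranges. The log2 fold change in FS against the other types was -0.58 ± 0.23 and did not pass the test (edgeR adjusted p = 0.110), nor did that of 0.67 ± 0.24 in PNST against FS (edgeR adjusted p = 0.0994). The ratio of EZH2 reads to EZH1 reads, which is not corrected for gene length and serves only to compare tumors, was 0.468, 0.692, 0.257 and 1.10 in S1-02, S1-11, S1-12 and S2-06. The PNST had ratios of 0.0651 to 0.225, with a median of 0.145, and the PWT ratios of 0.0727 to 0.310, with a median of 0.163. S1-12, the shallowest tumor, overlapped PWT in this ratio, and the 3 other FS lay above all PNST and PWT.

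SUZ12 and EED are the subunits whose genes are mutated in human malignant nerve sheath tumors. SUZ12 ranged from 16.6 CPM (S1-09) through a median of 22.6 to 30.8 (S2-07) in PNST and from 29.1 CPM (S1-07) through a median of 33.6 to 43.2 (S2-03) in PWT. The FS had 18.6 CPM in S1-02, 40.6 in S1-11, 25.8 in S1-12 and 39.9 in S2-06 and spanned both ranges. A single PNST, S2-07, reached the level of PWT, and the other 5 lay below every PWT. S2-07 is the only PNST named S2, and S1-07, the lowest PWT, is the only PWT named S1. Prefix and type are thus largely confounded in this split. In PNST against the other types pooled the log2 fold change was -0.60 ± 0.21 (unadjusted p = 0.0109 across all genes, edgeR adjusted p = 0.221), and against PWT alone it was -0.67 ± 0.23 (edgeR adjusted p = 0.141, DESeq2 adjusted p = 0.0639), so that neither difference passed the test. Over 26 alternative fits, the SUZ12 log2 fold change ran from -0.74 to -0.26 in PNST against the other types. Against PWT alone it ran from -0.82 to -0.29. No PNST was without SUZ12 reads, and the fewest in a PNST were 38. EED ranged from 10.4 to 20.2 CPM in PNST, from 14.2 to 28.3 in PWT and from 11.8 to 23.9 in FS, with at least 29 reads in each PNST. Its log2 fold change in PNST against the other types was -0.28 ± 0.23 (edgeR adjusted p = 0.552), and in PWT against the other types 0.40 ± 0.21 (edgeR adjusted p = 0.274). The annotation used for names places another gene over EED, JARID2, PHF19 and RNF2, and whether reads were counted by strand is not given in the sources used here, so reads of these genes could include some of their neighbors.

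None of the 3 accessory subunits was called in any comparison. JARID2 ranged from 38.4 to 107 CPM in FS, 33.5 to 70.0 in PNST and 33.4 to 65.4 in PWT. MTF2 was widest in FS, where S1-11 had 8.22 CPM and S1-12 had 31.3, the lowest and the highest of all tumors. PHF19 was measured at 33.0 CPM in S1-02, 51.5 in S1-11, 47.9 in S1-12 and 48.0 in S2-06, against 19.1 to 39.9 CPM in PNST and 20.6 to 49.6 CPM in PWT. Its log2 fold change in FS against the other types was 0.47 ± 0.24 (edgeR adjusted p = 0.220), and those of JARID2 and MTF2 were 0.38 ± 0.27 (edgeR adjusted p = 0.417) and 0.19 ± 0.30 (edgeR adjusted p = 0.757).

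RNF2, the ubiquitin ligase of PRC1, was measured at 14.3 CPM in S1-02, 18.1 in S1-11, 29.5 in S1-12 and 23.3 in S2-06. In PNST it ranged from 1.75 CPM (S1-05) through a median of 6.20 to 11.2 (S2-07), and in PWT from 2.73 CPM (S2-08) through a median of 6.28 to 17.4 (S2-03). Every FS lay above every PNST, and 3 of the 4 FS lay above every PWT, with S2-03 and S2-04 above S1-02. The median of FS was 3.29 times that of the other 12 tumors, and the log2 fold change was 1.51 ± 0.45 (edgeR adjusted p = 0.0377). Leaving out S1-07, S1-09, S1-10, S1-11, S1-12, S2-06, S2-08, S2-09 or S2-11 ended the call (edgeR adjusted p = 0.0507 to 0.0983), although the log2 fold change stayed between 1.34 and 1.72 in all 16 such fits. Among S1 tumors, RNF2 was at 14.3 to 29.5 CPM in FS and 1.75 to 8.81 in the others, and among S2 tumors S2-06 had 23.3 CPM against 2.73 to 17.4. With the prefix as a term the log2 fold change was 1.69 ± 0.45 (edgeR adjusted p = 0.0215), and by histological diagnosis it was 1.15 ± 0.49 (edgeR adjusted p = 0.258). In PNST against FS the gene fell by 1.75 ± 0.52 on the log2 scale (edgeR adjusted p = 0.0489), a call that leaving out any of 11 tumors ended (S1-03, S1-04, S1-05, S1-07, S1-09, S1-10, S1-11, S1-12, S2-04, S2-06 or S2-09, edgeR adjusted p = 0.0538 to 0.103), as did the prefix as a term (edgeR adjusted p = 0.0523). In FS against PWT the value of 1.29 ± 0.53 was not called (edgeR adjusted p = 0.117). RNF2 had 3 reads in S1-05 (95% Poisson interval 0.361 to 5.12 CPM), and when all tumors were thinned to 507728 reads it no longer passed the filter on low counts.

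CBX7, the reader of the PRC2 mark, was the other gene with wide differences. It was measured at 58.4 CPM in S1-02, 25.8 in S1-11, 57.1 in S1-12 and 9.50 in S2-06, while the PNST lay between 46.0 and 146 CPM around a median of 105 and the PWT between 43.2 and 71.2 CPM around 55.7. S1-11 and S2-06, the FS with the most EZH2, lay below all other tumors, and 4 of 6 PNST (S1-03, S1-05, S1-09 and S1-10) lay above all FS and PWT. None of the differences was called. The log2 fold change was 0.97 ± 0.34 in PNST against the other types (unadjusted p = 0.0103 across all genes, edgeR adjusted p = 0.220), 1.38 ± 0.44 in PNST against FS (edgeR adjusted p = 0.0611) and -1.05 ± 0.43 in FS against the other types (edgeR adjusted p = 0.130). PNST against FS was called by DESeq2 (1.34 ± 0.44, DESeq2 adjusted p = 0.0274), and both contrasts with FS were called with the prefix as a term (1.38 ± 0.35, edgeR adjusted p = 0.0262, and -1.42 ± 0.33, edgeR adjusted p = 0.0113). With the same term, PNST against PWT changed sign to a log2 fold change of -0.13. The 4 PNST above all FS and PWT are named S1. S2-07, the only PNST named S2, lay within the range of PWT at 46.0 CPM. Over 26 alternative fits, the log2 fold change in PNST against the other types ran from 0.57 to 1.11, without a call. BMI1, the partner of RNF2, ranged from 14.0 to 51.5 CPM in FS, where S1-11 and S2-06 were high, from 10.5 to 34.1 in PNST and from 22.1 to 50.1 in PWT, and passed no test (edgeR adjusted p = 0.391 in PNST against the other types).

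**Figure D2:**
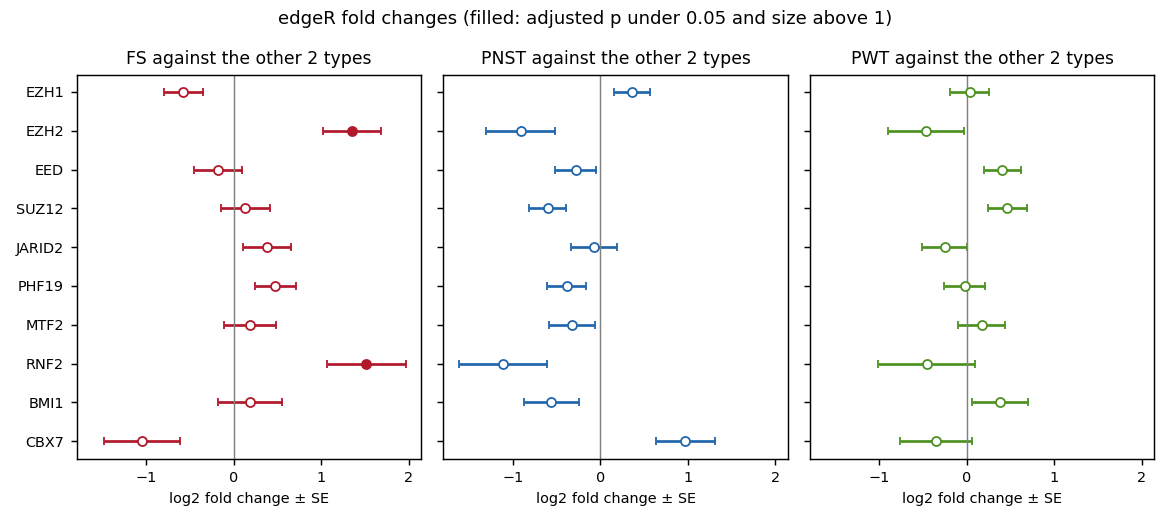
Log2 fold change of each gene (edgeR, bars of 1 SE) for FS, PNST and PWT, each against the other 2 types pooled. Filled points, EZH2 at 1.35 and RNF2 at 1.51 in FS, passed the test, and open points did not.

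Over all 16 tumors, the SD of log2 CPM ran from 0.37 for EED and 0.41 for EZH1 to 0.79 for EZH2, 0.91 for CBX7 and 1.05 for RNF2, beside a median of 0.67 over all genes tested. EED, EZH1, PHF19, SUZ12, MTF2 and JARID2 had a lower SD than that median, between 0.37 and 0.48. Within types, the SD of EZH2 was 0.61, of CBX7 0.74 and of RNF2 0.81. Of the 45 pairs of members, none had correlated levels at an adjusted p under 0.05 and 6 had an unadjusted p under 0.05 (permutation tests). The strongest was RNF2 with CBX7 over 16 tumors (Pearson r = -0.68, permutation p = 0.00231, adjusted over 45 pairs 0.0567; Spearman rho = -0.71, permutation p = 0.00297, adjusted 0.0999), and r was -0.73 without the 2 tumors farthest from the median of RNF2, -0.77 within S1 and -0.69 within S2, but -0.44 as differences from the mean of each type.

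EZH2 is transcribed with the cell cycle, so its level was set beside the mean log2 CPM of 30 proliferation genes, which do not include it. Of these, 18 were called higher in FS against the other types and 0 lower, against 5.78% and 3.68% of all genes. The median log2 fold change of the 30 was 1.37 beside 0.00 over all genes tested. Their summed level was 812 to 2721 CPM in FS, 608 to 642 in PNST and 680 to 1141 in PWT. The called genes were BUB1, BUB1B, CCNA2, CDK1, CENPE, CENPF, E2F1, FOXM1, KIF11, KIF14, KIF20A, MCM2, MCM4, MCM6, MKI67, RRM2, TOP2A and TPX2, from MCM2, a replication helicase subunit, at 1.05 ± 0.33 (edgeR adjusted p = 0.0463) to CDK1, the mitotic kinase, at 2.72 ± 0.49 (edgeR adjusted p = 0.00180). In PNST against the other types 0 of the 30 were called by edgeR, with a median of -1.10 beside -0.06. At an unadjusted p under 0.05, 17 were lower and 1 higher, against 9.1% and 6.57% of all genes. MKI67, a marker of cycling cells, was measured at 180 CPM in S1-11 and 118 in S2-06, and at 23.4 to 74.4 CPM in the other 14 tumors. EZH2 followed the proliferation mean over the 16 tumors (Pearson r = 0.83, permutation p = 0.00028, adjusted over the 10 relations 0.00185; Spearman rho = 0.74, permutation p = 0.00188, adjusted 0.0188). CBX7 ran against it (Pearson r = -0.81, permutation p = 0.00037, adjusted 0.00185; Spearman rho = -0.53, permutation p = 0.0372, adjusted 0.124). Without S1-11 and S2-06, the 2 tumors farthest from the median of the proliferation mean, r was 0.51 for EZH2 (permutation p = 0.0649) and -0.38 for CBX7 (permutation p = 0.182), and rho was 0.61 (permutation p = 0.0237, adjusted over the 10 relations 0.237) and -0.30 (permutation p = 0.305, adjusted 0.508), so neither relation passed after adjustment without those 2 FS. As differences from the mean of each type, r over the 16 tumors was 0.67 for EZH2 and -0.64 for CBX7. Within S1 tumors (n = 9) r was 0.96 for EZH2 (exact permutation p = 6.6e-05, adjusted over the 10 relations 0.000661) and -0.86 for CBX7 (exact permutation p = 0.00335, adjusted 0.0167), and 0.84 and -0.68 without the 2 S1 tumors farthest from the median. Within S2 tumors (n = 7) it was 0.77 (exact permutation p = 0.0401, adjusted 0.147) and -0.77 (exact permutation p = 0.140, adjusted 0.208), with rho of 0.64 and 0.071, and r of 0.37 and 0.83 without the 2 farthest, so CBX7 changed sign there. The next relations were those of SUZ12 (r = 0.57, permutation p = 0.0165, adjusted 0.0549), EZH1 (r = -0.56, permutation p = 0.0247, adjusted 0.0618) and BMI1 (r = 0.53, permutation p = 0.0315, adjusted 0.0631), and RNF2, called in FS like EZH2, had r = 0.44 (permutation p = 0.0916, adjusted 0.131). For RNF2, r was 0.67 within S1 (exact permutation p = 0.0382, adjusted 0.0986; rho = 0.85, exact permutation p = 0.00607, adjusted 0.0304), 0.18 within S2 (exact permutation p = 0.763, adjusted 0.763) and -0.20 as differences from the mean of each type.

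**Figure D3:**
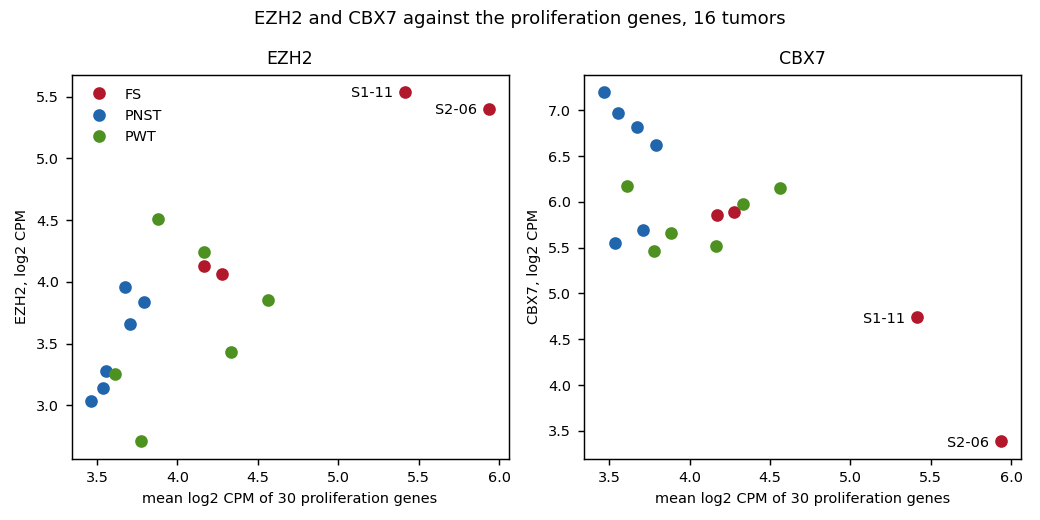
EZH2 (left) and CBX7 (right) in log2 CPM against the mean log2 CPM of 30 proliferation genes, with 1 point per tumor colored by type. S1-11 and S2-06 lie apart from the other 14 tumors, with r = 0.83 for EZH2 and -0.81 for CBX7 over all 16, and 0.51 and -0.38 without these 2.

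Other cell types also differed among the FS. The 8 skeletal muscle markers summed to 1003 CPM in S1-11 and to as little as 5.23 CPM in another FS (S2-06), and to 6.03 to 11.7 CPM in PNST and 3.23 to 451 CPM in PWT. The 8 keratinocyte markers ranged from 19.0 CPM (S2-06) to 1453 CPM (S1-02) in FS, 9.38 to 1372 CPM in PNST and 4.18 to 1034 CPM in PWT, and the 10 macrophage markers from 199 to 1508 CPM in FS, 268 to 671 CPM in PNST and 221 to 856 CPM in PWT. The 14 lymphocyte markers summed to 42.8 to 263 CPM in FS, 47.2 to 143 in PNST and 67.2 to 204 in PWT. Their part in the Polycomb results was not tested.

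Grade, which counts mitoses among other features, showed no call. With the 7 tumors of grade 2 or 3 against the 7 of grade 1 and a term for type, 0 of 10 genes were called, against 0% of the 14691 genes tested by edgeR and 0.0197% of those tested by DESeq2, which called 0 of the 10 as well, and 1 member had an unadjusted edgeR p under 0.05 and was higher, against 2.12% of all genes. That gene was PHF19, at 31.6 to 51.5 CPM in grade 2 or 3 and 19.1 to 41.8 CPM in grade 1 (log2 fold change 0.51 ± 0.23, edgeR adjusted p = 0.859). EZH2 ranged from 7.25 through a median of 13.5 to 45.5 CPM in grade 2 or 3 and from 5.57 through 11.6 to 21.8 CPM in grade 1, with a log2 fold change of -0.26 ± 0.39 (edgeR adjusted p = 0.983). No FS was grade 1, so with the term for type the FS do not inform the difference by grade. It rests on 2 PNST of grade 2 against 3 of grade 1, and on 1 PWT of grade 2 and 1 of grade 3 against 4 of grade 1. The CPM ranges for grade 2 or 3 include FS, and 45.5 (EZH2) and 51.5 CPM (PHF19) are levels of S1-11, an FS.

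The remaining Polycomb genes came from lists of 8 further PRC2 and 20 further PRC1 genes. Of 6 other PRC2 genes tested, EPOP, a PRC2 subunit that tempers its silencing, was called higher in FS and 0 were lower, and the median log2 fold change of the 6 was -0.35 beside 0.00 over all genes. EPOP was measured at 12.9 CPM in S1-02, 12.6 in S1-11, 27.6 in S1-12 and 3.80 in S2-06, against 1.45 to 4.48 CPM in PNST and 0.748 to 2.42 in PWT (log2 fold change 2.69 ± 0.44, edgeR adjusted p = 0.00104). Of 19 other PRC1 genes tested, 2 were called higher in FS and 0 lower, with a median of 0.24. For both lists, the share over all genes tested was 5.78% higher and 3.68% lower. CBX2, another reader of the PRC2 mark, was at 3.23, 22.5, 11.0 and 9.03 CPM in S1-02, S1-11, S1-12 and S2-06, against at most 4.09 CPM in PNST and 3.42 in PWT (2.18 ± 0.53, edgeR adjusted p = 0.0124). BCORL1, a corepressor of a variant PRC1, was at 17.6, 30.2, 62.6 and 58.9 CPM, against 15.2 to 22.9 CPM in PNST and 9.72 to 20.9 in PWT (1.36 ± 0.28, edgeR adjusted p = 0.00497). EPOP and CBX2 reached 10 counts in only 4 tumors, for EPOP 3 FS and 1 PNST and for CBX2 2 FS and 2 PNST, the fewest the filter allows. A gene so low could pass it only through tumors where it was high, so nothing is read from these 2 calls.

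Genes whose products oppose Polycomb silencing, the Trithorax-type methyltransferases and the SWI/SNF remodelers, were called higher in FS in 1 of 22 tested and lower in 0, with a median log2 fold change of 0.02. Of all genes tested, 5.78% were called higher in FS and 3.68% lower. The called gene was ARID1B, a SWI/SNF subunit, at 99.4 to 124 CPM in the 4 FS, 16.3 to 50.3 CPM in PNST and 6.73 to 40.1 CPM in PWT (1.99 ± 0.35, edgeR adjusted p = 0.00144). MEN1, part of a methyltransferase complex, was higher in PNST than in FS, at 15.9 to 28.1 CPM against 7.53 to 12.4 CPM (1.04 ± 0.27, edgeR adjusted p = 0.0251). In PNST against the other types pooled none of the opposing genes was called by edgeR. At an unadjusted p under 0.05, 3 were higher and 0 lower, against 6.57% and 9.1% of all genes. The smallest p was that of SMARCB1, a SWI/SNF subunit, at 32.5 to 48.3 CPM in PNST, 22.8 to 35.0 in FS and 13.9 to 31.7 in PWT (0.75 ± 0.20, edgeR adjusted p = 0.159). Of the other PRC1 genes, PCGF6, a partner of RNF2 in a variant complex, had the smallest p in PNST, at 1.09 to 5.97 CPM against 3.59 to 6.58 in FS and 5.47 to 8.88 in PWT (-0.78 ± 0.35, edgeR adjusted p = 0.294).

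**Figure D4:**
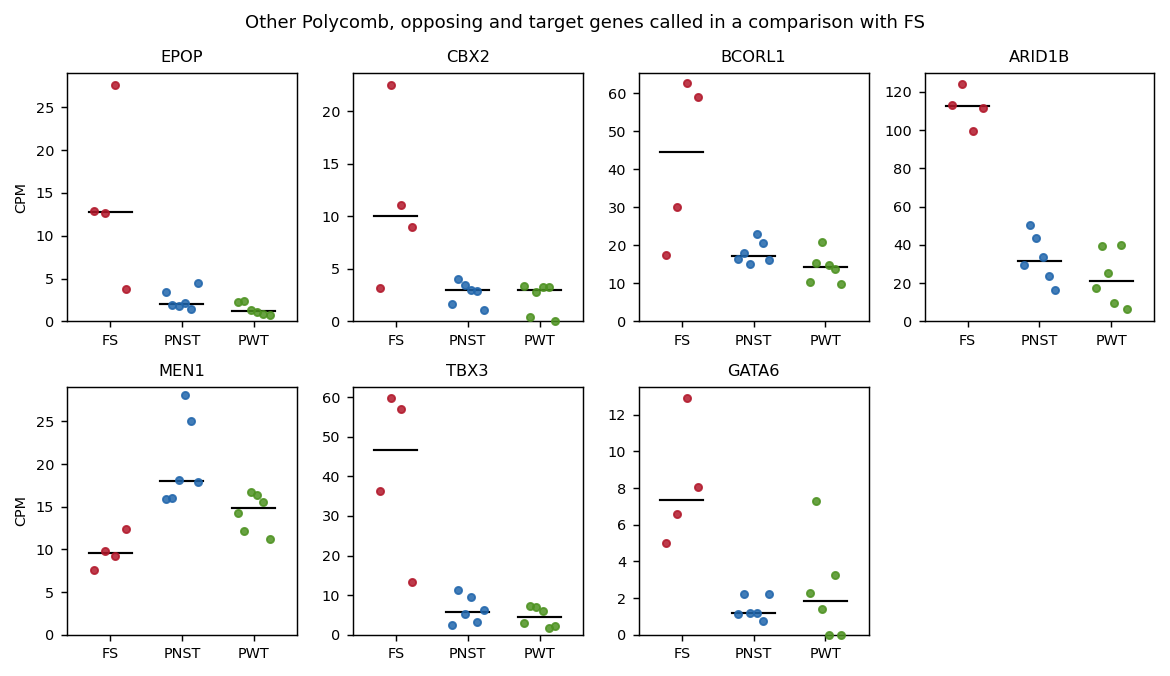
Levels (CPM, linear axis from 0) of the 7 further genes of the Polycomb lists that were called in a comparison with FS, with 1 point per tumor and a line at the group's median. ARID1B lies above 99 CPM in the 4 FS and at or below 50.3 CPM in the others. EPOP, CBX2 and GATA6 reached 10 counts in only 4 tumors each.

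Developmental transcription factors are the classic genes under PRC2 silencing. Of 62 such target genes listed, 61 were counted and 12 passed the filter, so 49 could not be tested. In PNST against the other types, 0 of the 12 were called by edgeR. At an unadjusted p under 0.05, 0 were higher and 2 lower, against 6.57% and 9.1% of all genes. In FS, 2 of the 12 were called higher and 0 lower, against 5.78% and 3.68% of all genes, but low genes could pass the filter through FS alone or nearly so, and nothing is read from that count. TBX3, a T-box factor, was at 36.2, 59.8, 57.1 and 13.3 CPM in S1-02, S1-11, S1-12 and S2-06, all above PNST (2.56 to 11.3 CPM) and PWT (1.64 to 7.27 CPM; 2.88 ± 0.41, edgeR adjusted p = 0.000331). GATA6, a factor of mesoderm and endoderm, was at 5.02 to 12.9 CPM in FS, 0.725 to 2.24 in PNST and 0 to 7.27 in PWT (1.98 ± 0.62, edgeR adjusted p = 0.0478), and it too reached 10 counts in only 4 tumors. With all tumors thinned to the same 507728 reads, 22 to 41 of the 61 genes had a read in FS, 13 to 23 in PNST and 13 to 22 in PWT. The share of all genes with a read after thinning was not computed, so nothing is read from these counts. NF1, lost beside PRC2 in many human nerve sheath tumors, was at 156 to 275 CPM in PNST (log2 fold change against the other types 0.02 ± 0.22, edgeR adjusted p = 0.968), and CDKN2B was not called either (0.13 ± 0.67, edgeR adjusted p = 0.942). CDKN2A, RBBP7 and EZHIP were not among the genes counted under these names, so they could not be analysed here.

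Over the 16 tumors, the genes whose log2 CPM followed that of EZH2 most closely were NCOA1 (Pearson r = 0.89), a coactivator of nuclear receptors, then LOC119871483, NR6A1, RTKN2 and ZDHHC2 (0.85 to 0.86). For EZH1 they were THOC5 (0.84), LOC111096582, C5H17orf49, LOC111091408 and JAG1 (0.82 to 0.83), and for CBX7 ZFAND3 (0.95), PNPLA2, CLIC3, NAPRT and JUP (0.89 to 0.92). These are the 5 highest of 15408 genes for each member, in tumors that differ in type and depth, and they are given as a description.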

How the data were processed

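Per the study's methods, the authors extracted total RNA from paraffin sections, depleted ribosomal RNA, sequenced on an Ion Proton, aligned reads to ROS-canfam-01 with STAR2 and counted them per gene with htseq-count. The deposited values are raw counts. The tool versions, the annotation and the strand setting of counting are not given in the sources used here. Here the 3 runs of each S1 tumor were summed, the 5 summary rows were left out (22.9% to 30.6% of reads per tumor fell on genes), and genes reaching 10 counts in 4 or more tumors were tested with edgeR 4.0.16 (glmQLFit and glmQLFTest, TMM, Benjamini-Hochberg) in R 4.3.3. Each type was fitted against both others pooled, and pairs of types in 1 model of type. DESeq2 1.42.0 was an alternative. Log2 CPM used a prior count of 2. Correlations used 100000 permutations, or all orders for fewer than 10 tumors. The tests were run first on simulated counts. The edgeR and DESeq2 p-values set a difference against the spread between tumors, with S1-04 and S1-05 counted as 2 tumors. The 10 genes and the gene lists were chosen with earlier results of these data known. By rule, the text names the 10 genes, list genes called in a comparison, up to 3 list genes of smallest p where fewer than 3 were called, and the 5 most similar genes for EZH2, EZH1 and CBX7. Sequences and coordinates are not given, and RefSeq's UU_Cfam_GSD_1.0 was used only for gene neighbors.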

Additional observations from a re-analysis of the deposited data

Results flagged for a closer look

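PHF19 in the FS S1-02, at 33.0 CPM (92 reads), lay apart from the other 3 FS (47.9 to 51.5 CPM): its gap to the nearest of them was 0.834 of the group's range on the log2 scale, past Dixon's critical value for 4 samples. It was the only one of 30 combinations of gene and type so marked, and chance marks about 1 in 20.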

How the results depend on the processing

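No Polycomb gene was called for PNST against the other types, PWT against the other types, PNST against PWT or grade under any alternative, including fits that left out each tumor in turn. The counts of called members that rest on FS moved. For FS against the other types (2 of 10) the count was 0 with libraries thinned to the shallowest tumor or with the histological diagnosis, 1 with the first run only and 1 without S1-10 and S2-08, 3 with the prefix as a term, which added CBX7, and 0 to 2 with 1 tumor left out. For PNST against FS (2 of 10) it was 1 with upper quartile factors or with S1-04 and S1-05 summed. It was also 1 with thinned libraries or with the first run only. Over the alternative fits there, EZH2 was called in 20 of 26, RNF2 in 8 of 25 and CBX7 in 6 of 26. The prefix as a term called CBX7 there and not RNF2. The count was 0 with the histological diagnosis or without S1-10 and S2-08. It was 3 by DESeq2, which added CBX7, and 0 to 3 with 1 tumor left out. For FS against PWT (1 of 10) it was 0 with upper quartile factors, without the filter on low counts, with the prefix as a term, with S1-04 and S1-05 summed, with thinned libraries, with the first run only, with the histological diagnosis and without S1-10 and S2-08, and 0 to 2 with 1 tumor left out. Of the relations to proliferation, 2 passed in all tumors and within S1, 3 with RLE factors (SUZ12 added), 0 within S2 and 0 without FS. Leaving out FS, and leaving out S1-10 and S2-08, were chosen after seeing the data. Thinning and single runs leave fewer reads, and RNF2 was then below the filter when thinned; for the other changes the cause was not tested.

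None of the log2 fold changes that changed sign had been called. Some that are not in the list below also changed sign. EED ran from -0.17 to 0.16 over the alternatives in PNST against FS. In FS against PWT, BMI1 ran from -0.44 to 0.18 and MTF2 from -0.24 to 0.40. By grade, MTF2, RNF2, JARID2 and SUZ12 changed sign in at least 1 alternative. JARID2 in PNST against the other types was 0.032 without the filter. In PWT against the other types, CBX7 was 0.53 with the prefix term and 0.14 by histological diagnosis, EZH1 was -0.053 without the filter and -0.12 thinned, MTF2 was -0.080 thinned, and PHF19 was 0.14 with the prefix term, thinned or with the first run only, 0.10 by histological diagnosis and 0.048 without S1-10 and S2-08. CBX7 in PNST against PWT was -0.13 with the prefix term, and EZH1 there was -0.058 by histological diagnosis. SUZ12 in FS against PWT was 0.080 with the prefix term and 0.12 by histological diagnosis. EZH2 by grade was 0.69 without the term for type. With 1 tumor left out, JARID2 ran from -0.15 to 0.070 in PNST against the other types, and BMI1 from -0.17 to 0.45, MTF2 from -0.085 to 0.44 and SUZ12 from -0.033 to 0.33 in FS against the other types. EZH1 ran from -0.053 to 0.14 and PHF19 from -0.14 to 0.090 in PWT against the other types, and SUZ12 from -0.34 to 0.024 in FS against PWT.

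No paired analysis was possible because the replicate numbers follow the order of the samples and pair no tumors across types. Depth limits the lowest genes most, since 3 to 49 reads lie behind each RNF2 value and 4 to 87 behind each EZH2 value.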
